A study of Mus musculus with 30 samples.

Results

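Control 3T3-L1 preadipocytes were compared between day -1 and day -2, the 24 h step that starts 24 h and ends 48 h after transfection and is counted back from the start of differentiation on day 0. The comparison was made of the 5 scramble libraries of each day, 10 of the 30 libraries in the series, and was read across all 12016 genes of the deposited count table. 3T3-L1 is a clonal mouse fibroblast line that can be turned into fat cells. All cells of both groups had been plated together with 50 nM of a non-targeting siRNA (scramble) and a lipid transfection reagent on day -3, when they were below confluence, and were harvested on day -2 (24 h) or day -1 (48 h). The remaining libraries, also 5 per group, were scramble cells of day 0 (72 h) and cells that had received 50 nM of siRNA against Kdm5c at the same 3 times. No cells without a transfection were among the samples, and the labels give neither the density of the dishes at harvest nor whether replicates were separate cultures. Time after plating, time after transfection, cell density and any effect of the harvest or preparation of a day therefore cannot be told apart. Each p measures the spread between libraries, which may be technical.

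Preadipocytes in culture divide until the dish is full, then stop in G1 and, when given inducers, leave this arrest to become adipocytes. As fibroblasts crowd and stop dividing, they are known to lower the genes of DNA synthesis and ribosome production, to reorganise actin fibres and the transcription driven by the cofactors MRTF and YAP, and to deposit matrix. The question put to the data was which of these and other gene groups changed in the control cells in this step, in which direction and by how much.

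Library totals were 28161520 to 30553807 reads on day -2 and 27975969 to 29860905 on day -1, and levels are given as CPM, the reads of a gene per 1000000 reads of the library, as mean ± SD of 5 libraries. Fibroblast markers were present as the label requires: 11 of 12 averaged at least 2 CPM, with summed levels of 27209.9 to 28256 CPM on day -2 and 29453 to 32540.4 CPM on day -1. Markers of leukocytes summed to 11.1 to 15.3 and 10.8 to 12.4 CPM, of endothelium to 2.58 to 3.27 and 2.52 to 3.11 CPM and of epithelium to 0.229 to 0.493 and 0.471 to 0.771 CPM on the 2 days. Of these marker lists, Tyrobp, Cd3e, Adgre1, Cldn7 and Epcam were at 0. Kdm5c (chrX:152233020-152274535, + strand, GRCm38), the target of the other siRNA, stood at 156, 159, 158, 157 and 155 CPM in the day -2 libraries and 187, 194, 189, 187 and 188 CPM in the day -1 libraries. It stood at 25.5 ± 1.29 and 35.6 ± 3.57 CPM on the same days in the Kdm5c siRNA libraries. The first principal component of the 10 libraries held 88.5% of the variance and parted the days. On it, the day -1 libraries fell into replicates 1 to 3 (26.3 to 26.9) and replicates 4 and 5 (21.4 and 21.9), the latter nearer to day -2 (-25.5 to -23.6). The second component held 3.4% and set replicates 1 to 3 apart from replicates 4 and 5 on both days. Replicates 1 to 3 lay at -7.7 to -1.2 (day -2) and -5.2 to -1.7 (day -1). Replicates 4 and 5 lay at 3.0 and 8.3 (day -2) and 6.1 and 3.7 (day -1). The labels give no reason for these splits, their part in the results was not tested, and counts were repeated without either day -1 set.

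The step changed most of the 12016 genes of the filtered count table by small amounts. In edgeR's quasi-likelihood test with Benjamini-Hochberg adjustment over all genes, 4748 genes were called higher on day -1 (39.5% of those tested) and 4729 lower (39.4%) at an adjusted p under 0.05, 78.9% in all. Of the 9477 called genes, 3451 differed by less than 1.2-fold, and at the median a called gene differed by 0.34 (log2). Past 1.5-fold, more genes were higher (1465, 12.2%) than lower (776, 6.46%). Past 2-fold the counts were 522 and 155, and past 4-fold 57 and 19. The count table holds only genes that reach 1 CPM in 20 libraries. A gene below this on day -2 alone could pass, but one above it on day -2 alone could not. This filter can therefore leave out large falls while it keeps rises of the same size. The splits by fold were not counted without it. With no filter, 32318 genes were tested, of which 5338 were called higher and 5550 lower. The 5 libraries of one day did not overlap those of the other in CPM for 66.3% of genes, 4665 of them higher and 3306 lower. Overlap was read on CPM without TMM scaling. The balance of higher and lower depended on the scaling: TMM factors were 0.974 to 0.977 on day -2 and 1.025 to 1.027 on day -1, so the model's fold changes are lower than the ratio of the printed CPM by 0.073 (log2) at the median. Without TMM the split was 5620 higher and 3887 lower, and with upper-quartile scaling 5485 and 4008. Without day -1 replicates 1 to 3 it was 4286 and 4284, and without replicates 4 and 5 it was 4606 and 4645. Since 78.9% of genes passed the test, the counts of called members in each group below are to be read against 39.5% and 39.4%, and the size of a change carries more than its call.

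**Figure D1:**
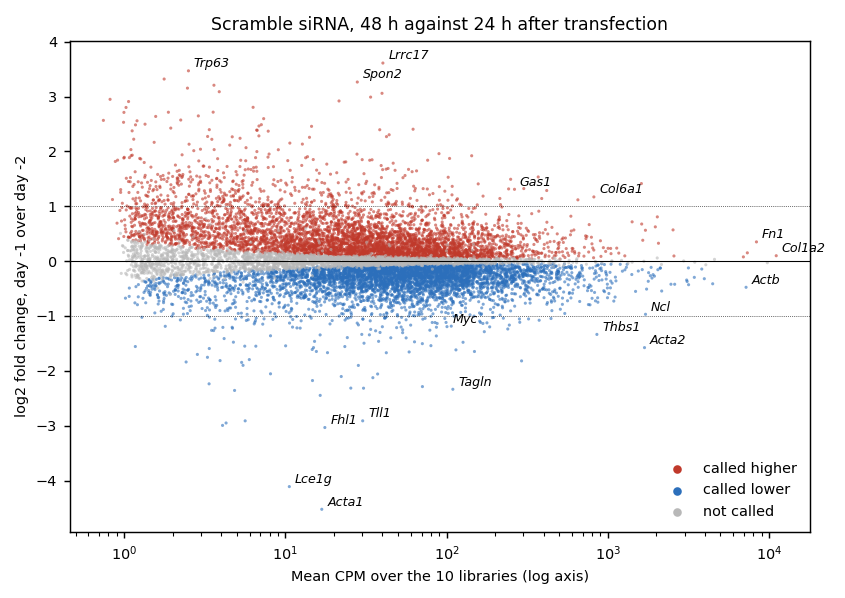
log2 fold change of each of 12016 genes between scramble day -1 and day -2 (vertical axis, edgeR with TMM scaling) against its mean CPM over the 10 libraries (horizontal, log axis); red genes were called higher, blue lower and grey not called, and dotted lines mark 2-fold. The changes reach from -4.52 for Acta1 to 3.61 for Lrrc17, and genes past 2-fold are more often higher (522) than lower (155). The filter of 1 CPM in 20 libraries leaves out genes that reach this level on day -2 alone.

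Values in brackets after a level are log2 fold changes, with the SE after ± where one is given. The largest rise was that of Lrrc17 (chr5:21543559-21575904, + strand), a secreted leucine-rich repeat protein known to restrain osteoclast formation. It measured 7.06, 5.76, 5.89, 5.43 and 4.82 CPM in the day -2 libraries and 79.7, 83.04, 77.2, 64.8 and 69.2 CPM in the day -1 libraries. Every day -1 library was above every day -2 library, which the rule for naming the largest changes required. Within day -1 it was highest in replicates 1 to 3. Its log2 fold change was 3.61 ± 0.10 (SE; adjusted p = 1.77e-25). Scara5, a ferritin receptor and a surface marker of mesenchymal progenitors, followed the same course, with 10.1, 8.54, 7.61, 8.13 and 6.16 CPM in the day -2 libraries and 71.8, 73.3, 73.7, 67.7 and 70.9 CPM in the day -1 libraries. Its log2 fold change was 3.06 ± 0.055 (adjusted p = 4.74e-30), the smallest p of the genes named here. Spon2, a secreted matrix protein, rose from 5.02 ± 0.664 to 50.9 ± 5.32 CPM (log2 fold change 3.27 ± 0.084). Ptprv, a receptor-type phosphatase first known from bone and embryonic stem cells, rose from 7.202 ± 0.743 to 60.4 ± 9.299 CPM (log2 fold change 2.99 ± 0.11). Ppp1r3c, which targets protein phosphatase 1 to glycogen, rose from 4.79 ± 0.654 to 38.3 ± 7.29 CPM (log2 fold change 2.92 ± 0.13). The remaining genes of the 10 largest rises started below 2 CPM, so their folds rest on few reads: Trp63, a p53-family transcription factor of epithelial progenitors, went from 0.3896 to 4.63 CPM, and the Wnt ligand Wnt6 from 0.472 to 4.47 CPM. The globin Cygb went from 0.779 to 7.01 CPM and Syt13, a synaptotagmin of vesicle traffic, from 1.504 to 11.1 CPM. Trim30d went from 0.674 to 6.54 CPM, but it belongs to a cluster of near-identical genes whose reads could be split between copies. Trp63, Wnt6, Cygb and Trim30d were below 1 CPM in every scramble day -2 library and met the filter of the count table without those libraries. A gene below 1 CPM with both siRNAs from day -1 on could not meet it, so falls of this kind could not be named.

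Genes of the contractile apparatus were among the largest falls. Acta1, skeletal muscle alpha-actin, measured 32.5, 31.5, 34.5, 30.9 and 31.7 CPM in the day -2 libraries and 2.11, 1.44, 1.51, 1.44 and 0.846 CPM in the day -1 libraries. Its log2 fold change was -4.52 ± 0.10 (adjusted p = 3.99e-28). Actins share coding sequence, and how the authors counted reads shared between them is not given in the sources used here. Among markers of skeletal and cardiac muscle only Acta1 and Tnnt2 (91.4 to 49.3 CPM) averaged at least 2 CPM. The list summed to 119 to 133 CPM on day -2 and 47.7 to 57.0 on day -1, and Ckm, Myod1 and Myf5 were at 0. Tagln, which encodes the actin-binding protein SM22, measured 174, 182, 174, 179.7 and 196 CPM in the day -2 libraries and 38.2, 40.2, 38.5, 36.4 and 35.3 CPM in the day -1 libraries. Its log2 fold change was -2.34 ± 0.056. Fhl1, a LIM-domain protein of stress fibres, fell from 31.2 ± 1.404 to 4.005 ± 0.426 CPM (log2 fold change -3.03 ± 0.081). Ankrd1, a nuclear ankyrin-repeat protein and a standard YAP target, fell from 27.6 ± 0.4297 to 5.31 ± 1.03 CPM (-2.45 ± 0.084). Tll1, a tolloid-like protease that cleaves procollagen and chordin, fell from 53.01 ± 6.82 to 7.39 ± 0.383 CPM (-2.91 ± 0.089). Lce1g, of the late cornified envelope family, fell from 19.97 ± 0.673 to 1.21 ± 0.177 CPM (-4.11 ± 0.085), with the caution that this family's copies are alike. Lower still in level were Lrp2, the endocytic receptor megalin (7.21 to 0.948 CPM), Rasgrp3, an activator of Ras and Rap (7.56 to 1.03 CPM), the transmembrane protein Dynap (9.899 to 1.38 CPM) and the death receptor Tnfrsf21 (8.05 to 1.64 CPM).

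**Figure D2:**
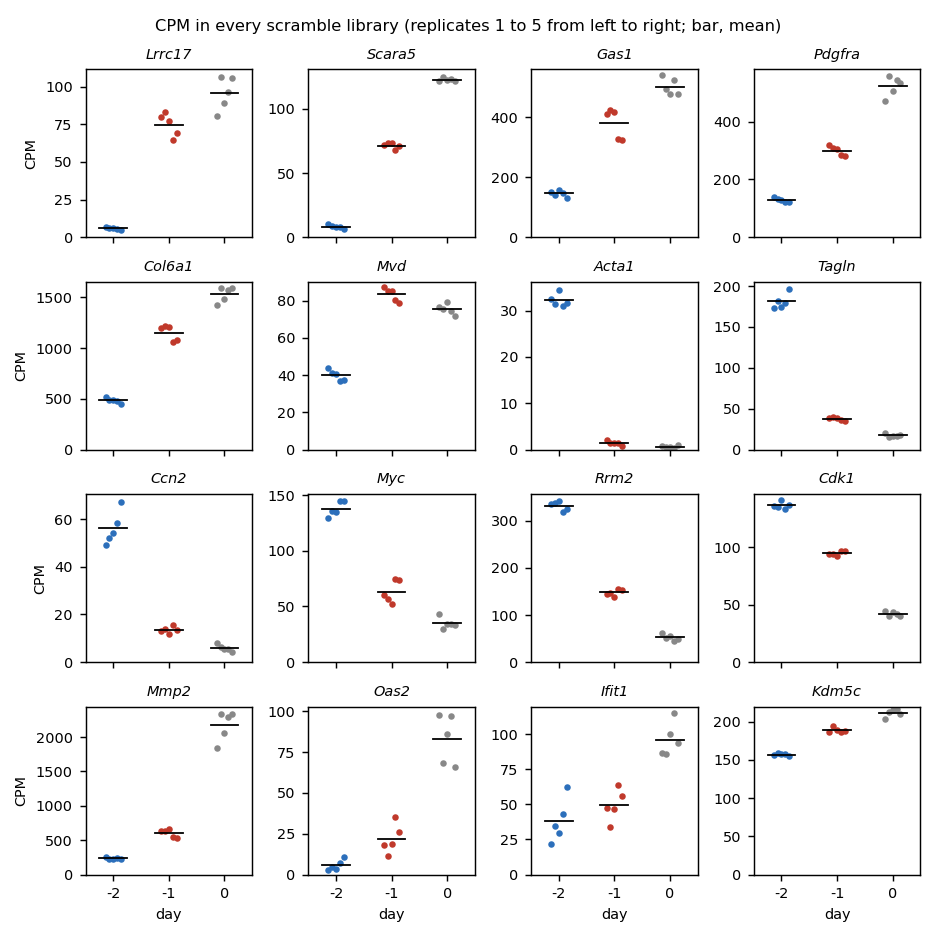
CPM (vertical axis, from 0) of 16 genes in every scramble library on day -2, day -1 and day 0 (horizontal axis; 5 points per day, replicates 1 to 5 from left to right; bar, mean). Lrrc17, Scara5, Gas1, Pdgfra, Col6a1 and Mvd are higher on day -1 than on day -2 in every library, Acta1, Tagln, Ccn2, Myc, Rrm2 and Cdk1 lower in every library, and the day -2 and day -1 points of Ifit1 overlap.

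Genes of DNA replication fell almost as a whole: 41 of 42 tested members were called lower and 0 higher, with a median log2 fold change of -0.47 against 0.00 over all genes. Rrm2, the small subunit of ribonucleotide reductase that makes deoxynucleotides, fell furthest in this list. It measured 336, 338, 342, 318 and 324 CPM in the day -2 libraries and 144, 147, 139, 156 and 154 CPM in the day -1 libraries, with a log2 fold change of -1.24 ± 0.043 (adjusted p = 7.78e-23). Its partner Rrm1 fell from 358 ± 7.74 to 251 ± 6.98 CPM (-0.58). The flap endonuclease Fen1 fell from 118 ± 1.86 to 72.5 ± 2.74 CPM (-0.78) and the helicase subunit Mcm3 from 277 ± 6.098 to 189 ± 11.7 CPM (-0.63). The loading factor Cdc6 went from 39.2 to 22.97 CPM (-0.85). Rfc4, a clamp loader subunit with 15.02 to 16.1 CPM, was the member not called.

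Mitosis genes moved less in this step, with 51 of 56 called lower, 1 higher and a median of -0.34. Cdk1, the kinase that drives entry into mitosis, measured 136, 135, 141, 134 and 137 CPM in the day -2 libraries and 94.1, 94.6, 92.6, 97.2 and 97.2 CPM in the day -1 libraries. The days did not overlap, and the log2 fold change was -0.60 ± 0.029 (adjusted p = 3.77e-19). Larger falls were those of the transcription factors of the G2/M programme, Mybl2 (54.6 ± 2.28 to 27.9 ± 2.098 CPM, -1.04) and Foxm1 (239 ± 6.13 to 152 ± 8.74 CPM, -0.72). The survivin gene Birc5 fell from 79.1 ± 2.67 to 58.5 ± 0.9399 CPM (-0.51). The proliferation marker Mki67 moved from 583 to 533 CPM (-0.20), and the spindle genes Aspm (144 to 148 CPM, -0.036) and Bub1b (156 to 167 CPM, 0.023) were not called. Nusap1, a microtubule-bundling protein, was the member called higher (0.23).

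Sequence features at the starts of these genes, which the choice of the comparison did not use, were counted next. Promoters of 300 bases, 250 before to 50 after the RefSeq start (GRCm38.p6), were at hand and unambiguous for 7210 of the 12016 tested genes, and each motif was searched on both strands. The CHR element TTTGAA, through which the DREAM and MuvB complexes act on mitotic genes, was in 33 of 45 promoters of the mitosis list (73.3%) against 11.6% of all 7210. The CCAAT box (CCAAT), bound by NF-Y, was in 71.1% against 40.1%, and both in 60% against 5.05%. The CCAAT box alone was more frequent in other lists, with 93.3% of 15 promoters of sterol synthesis, 90% of 10 of clock genes and 85% of 20 of endoplasmic reticulum folding. For DNA replication, the E2F site TTTCCCGC was in 16.7% of 30 promoters against 2.41%, the form TTTGGCGC in 20% against 1.07%, and either in 33.3% against 3.44%. The next 2 promoters are those of the list members with the smallest adjusted p that hold the motifs. They are written 5′ to 3′ on the gene's strand with motif matches in capitals, for Cdk1 at chr10:69352863-69353162 (- strand) and for Mcm3 at chr1:20820263-20820562 (- strand).
Cdk1: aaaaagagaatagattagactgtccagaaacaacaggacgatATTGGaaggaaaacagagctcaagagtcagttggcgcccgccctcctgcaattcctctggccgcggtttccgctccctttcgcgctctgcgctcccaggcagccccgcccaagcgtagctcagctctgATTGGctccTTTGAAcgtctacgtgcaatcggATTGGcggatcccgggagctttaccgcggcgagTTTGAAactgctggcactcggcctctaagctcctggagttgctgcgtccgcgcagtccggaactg
Mcm3: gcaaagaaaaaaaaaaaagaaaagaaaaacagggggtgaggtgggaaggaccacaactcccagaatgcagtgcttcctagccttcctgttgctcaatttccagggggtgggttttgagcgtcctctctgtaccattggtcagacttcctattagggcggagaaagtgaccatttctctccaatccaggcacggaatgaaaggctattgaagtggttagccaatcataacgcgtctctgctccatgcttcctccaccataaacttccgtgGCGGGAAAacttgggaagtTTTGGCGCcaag
In the Cdk1 promoter the capitals mark 2 CHR elements and 3 CCAAT boxes, the latter on the opposite strand, and in the Mcm3 promoter 1 match to each E2F form. Mitosis genes with a CHR element in this window had a median log2 fold change of -0.34 (33 genes) and those without one -0.33 (12 genes). A match is a description of letters and does not show binding in these cells.

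Upstream of these genes, the G1 list went both ways, with 16 of 25 members called lower and 7 higher. Cyclins and an activator were among those that fell: Ccnd1, the growth factor-responsive cyclin D1, measured 797, 824, 830.1, 822 and 832 CPM in the day -2 libraries and 484, 497, 495, 554 and 564 CPM in the day -1 libraries (-0.74 ± 0.036). The cyclin E genes fell too, Ccne1 from 74.4 ± 1.62 to 43.6 ± 1.99 CPM (-0.84) and Ccne2 from 45 ± 1.38 to 22.3 ± 1.498 CPM (-1.09), and so did the phosphatase Cdc25a, which activates their kinase, from 74.8 ± 2.29 to 37.5 ± 2.19 CPM (-1.07). CDK inhibitors and a pocket protein were among those that rose: Cdkn1a (p21) went from 109 ± 3.55 to 185 ± 6.68 CPM (0.69) and Cdkn1b (p27) from 122 ± 1.09 to 177 ± 1.89 CPM (0.46). The tumour suppressor locus Cdkn2a (p16 and p19Arf) rose from 160.1 ± 1.96 to 258 ± 8.11 CPM (0.61) and Rbl2 (p130), the pocket protein of resting cells, from 21.1 ± 0.941 to 32.8 ± 1.76 CPM (0.56). Genes known to rise in growth-arrested fibroblasts were higher in 17 of 19 members, with a median of 0.56. Gas7 rose from 18.9 ± 1.82 to 105 ± 6.48 CPM (2.41) and the antiproliferative gene Tob1 from 25.2 ± 1.17 to 65.5 ± 5.08 CPM (1.31). Smaller rises were those of Gas2, from 62.4 ± 3.87 to 128 ± 5.12 CPM (0.96), and the transcription factor Foxo3, from 59.9 ± 0.734 to 108 ± 5.23 CPM (0.78). Gas1, a membrane protein of arrested cells, had 152, 140.4, 159, 149 and 131 CPM in the day -2 libraries and 411, 427, 418, 329 and 324 CPM in the day -1 libraries. Replicates 4 and 5 were the lowest of day -1. Yaf2 (-0.51) was the member called lower.

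Of the 44 lists, ribosome biogenesis was the one in which every member fell. All 41 tested members of ribosome biogenesis, Myc included, were called lower, 34 of them past 1.5-fold, and the median was -0.75. Myc, the transcription factor that drives this programme, measured 129, 136, 135, 145 and 145 CPM in the day -2 libraries and 60.3, 56.6, 52.2, 74.2 and 73.6 CPM in the day -1 libraries (-1.19). Nop2, a nucleolar rRNA methyltransferase, measured 327, 333, 329.7, 337 and 343 CPM in the day -2 libraries and 146, 146, 151, 172 and 168 CPM in the day -1 libraries. Its log2 fold change was -1.17 ± 0.043 (adjusted p = 2.31e-22). The snoRNP protein Nhp2 fell from 109.9 ± 2.09 to 53.2 ± 4.01 CPM (-1.12) and the nucleolar chaperone Nolc1 from 501 ± 10.4 to 249.8 ± 15.6 CPM (-1.08). The RNA polymerase I subunit Polr1b fell from 94.8 ± 1.98 to 47.8 ± 3.76 CPM (-1.06) and the abundant nucleolar protein Ncl from 2231 ± 62.8 to 1199 ± 95.03 CPM (-0.97). Within day -1, replicates 4 and 5 had the higher values of Nop2 and Myc. The E-box CACGTG, the letters that Myc and Max bind, was in 9 of 32 promoters of this list (28.1%) against 10.6% of all. The share was higher still in lists that did not fall as a whole: 36.7% of 30 promoters of lysosomal genes, 33.3% of 12 of p53 targets and 30% of 10 of clock genes. The Nop2 promoter, at chr6:125131633-125131932 (+ strand), holds 1 match, in capitals.
Nop2: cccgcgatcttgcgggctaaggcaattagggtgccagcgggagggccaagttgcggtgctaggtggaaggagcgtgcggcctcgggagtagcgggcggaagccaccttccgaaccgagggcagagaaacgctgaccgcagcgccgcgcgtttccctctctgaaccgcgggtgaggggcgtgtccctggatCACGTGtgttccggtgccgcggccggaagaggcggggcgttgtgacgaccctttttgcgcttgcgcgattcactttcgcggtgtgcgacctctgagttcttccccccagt
Cytosolic ribosomal proteins also fell, but by less: 46 of 49 were called lower, none higher, with a median of -0.20. Without TMM scaling 36 were lower and 1 higher (median -0.12). The days did not overlap in CPM in 29 of 49, against 66.3% of all genes. Rpl27 (132 ± 2.96 to 90.6 ± 3.79 CPM, -0.61) led Rpl6 (-0.33), Rpl8 (-0.36) and Rpl14 (-0.33). These genes have many processed copies in the genome, which can take reads. The list of cytosolic heat shock proteins, which also holds the mitochondrial chaperonin Hspd1, was lower in 12 of 15 members (median -0.41). Hsp90aa1 fell from 944 ± 13.9 to 574 ± 27.9 CPM, Hspd1 from 967 ± 16.7 to 585 ± 30.1 CPM, and Hspa8 from 1114 ± 19.01 to 797 ± 29.5 CPM. Hsp90ab1, among the 10 most abundant called genes, fell from 5001 ± 34.1 to 3952 ± 138 CPM (-0.41). Hspb1 rose (2.69 to 4.39 CPM).

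**Figure D3:**
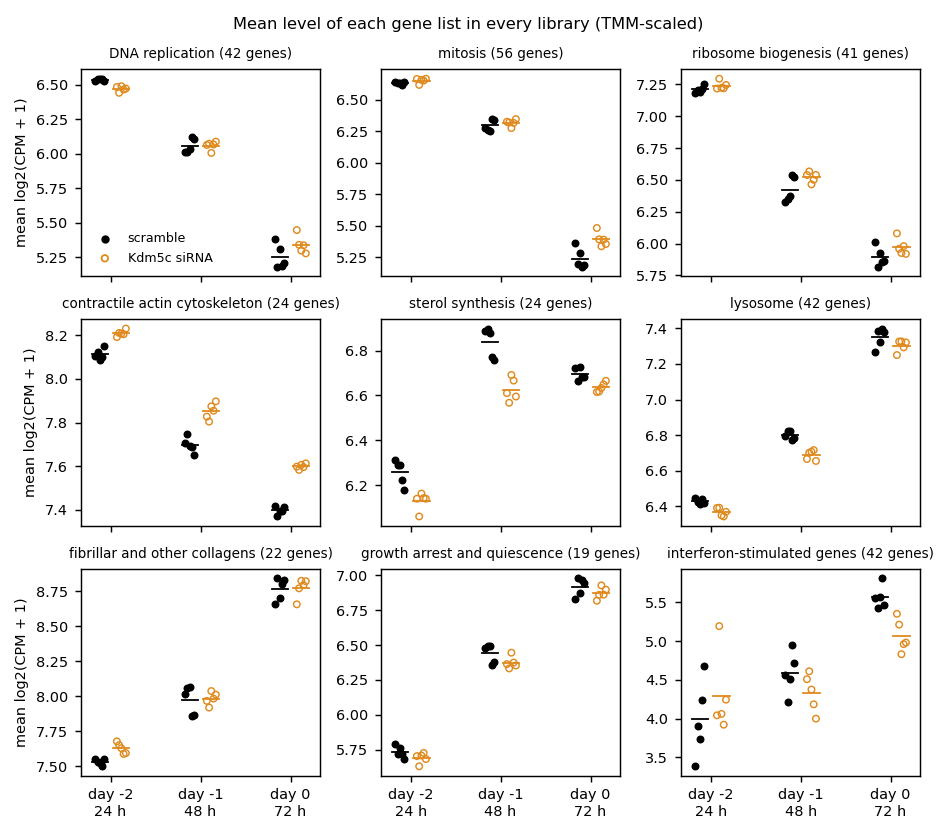
Mean log2(CPM + 1), TMM-scaled, over the tested genes of 9 lists (vertical axis) in every library on day -2, day -1 and day 0 (horizontal axis); filled points are scramble libraries, open points Kdm5c siRNA libraries, and bars group means. From day -2 to day -1 scramble libraries fall in the first 4 lists and rise in the next 4 without overlap, sterol synthesis is highest on day -1, and interferon-stimulated genes overlap between the days.

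Contractile and YAP-linked genes fell more often than they rose. In the contractile list 19 of 24 members were called lower and 4 higher (median -0.31). Acta2, smooth muscle alpha-actin, measured 2405, 2533, 2429, 2483 and 2649 CPM in the day -2 libraries and 902, 930.4, 869, 862 and 844 CPM in the day -1 libraries (-1.58 ± 0.036). Actg2 fell from 117 ± 4.14 to 25.1 ± 2.73 CPM (-2.29) and the myosin light chain Myl9 from 103 ± 4.85 to 38.3 ± 3.52 CPM (-1.50). Actb, the cytoplasmic beta-actin, fell from 8212 ± 123 to 6208 ± 86.9 CPM (-0.48, adjusted p = 2.75e-22). Mylk, myosin light chain kinase, and the intermediate filament gene Des rose, from 12.4 ± 0.575 to 36.7 ± 4.38 CPM (1.49) and from 1.54 to 4.25 CPM (1.39). The transcription factor Srf itself went from 94.4 to 74.6 CPM (-0.41). Regulators of actin turnover were lower in 22 of 28 (median -0.18, -0.11 without TMM scaling). Among them were the actin-bundling Fscn1 (1026 ± 20.3 to 653 ± 7.83 CPM), the actin-sequestering Tmsb4x (521 ± 10.5 to 318 ± 7.03 CPM), Marcksl1 (182 to 97.4 CPM) and cofilin, Cfl1 (1965 to 1602 CPM). Instead, Arhgef2, Rhob, Wasf2 and Marcks were called higher (log2 fold changes 0.45, 0.31, 0.22 and 0.31).

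Of the YAP, TAZ and TEAD list 17 of 26 members were lower, 10 past 1.5-fold, and 8 higher (median -0.40). In all 26 the libraries of the days did not overlap, against 66.3% of all genes. The secreted CCN proteins, standard YAP readouts, fell: Ccn1 measured 222, 226, 220.4, 223 and 224 CPM in the day -2 libraries and 73.5, 84.4, 65.3, 76.6 and 74.9 CPM in the day -1 libraries (-1.65 ± 0.060). Ccn2 went from 56.3 ± 7.07 to 13.6 ± 1.37 CPM (-2.13). Crim1, a transmembrane binder of BMPs, measured 90.7, 92.8, 92.9, 90.4 and 92.2 CPM in the day -2 libraries and 34.1, 36.8, 35.9, 33.02 and 34.3 CPM in the day -1 libraries (-1.47 ± 0.034, adjusted p = 8.7e-28). The angiomotin Amotl2, a feedback inhibitor of YAP, fell from 254 ± 6.28 to 116 ± 4.26 CPM (-1.20). F3 (tissue factor), Fstl1, Dock5 and Amotl1 rose instead (1.11, 0.67, 0.27 and 0.28). The TEAD core CATTCC was in 10 of 18 promoters of the list (55.6%) against 11.3% of all. It was also in 38.9% of 18 promoters of the contractile list and 21.1% of 19 of integrins and focal adhesion. The Crim1 promoter, at chr17:78199998-78200297 (+ strand), holds 1 match on the opposite strand, in capitals.
Crim1: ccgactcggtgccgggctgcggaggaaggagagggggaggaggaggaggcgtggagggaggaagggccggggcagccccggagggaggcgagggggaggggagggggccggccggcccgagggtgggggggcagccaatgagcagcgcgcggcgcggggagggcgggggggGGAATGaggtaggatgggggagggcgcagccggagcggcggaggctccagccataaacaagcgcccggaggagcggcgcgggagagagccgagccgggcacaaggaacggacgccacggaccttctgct
Both called directions occur in this list, so the motif shares describe its promoters and not only those of genes that fell.

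Adhesion genes fell more often than they rose. Among integrins and focal adhesion genes 19 of 29 were lower and 7 higher (median -0.31, -0.23 without TMM scaling): Itgb1, the common beta subunit, measured 1008, 1024, 1033, 1061 and 1083 CPM in the day -2 libraries and 692, 686, 702, 686 and 682 CPM in the day -1 libraries (-0.67 ± 0.021). Its fibronectin-binding partner Itga5 fell from 679.7 ± 7.75 to 475 ± 8.84 CPM. The actin crosslinkers Actn1 and Actn4 fell from 1095 ± 9.09 to 793 ± 6.24 CPM and 969.9 ± 7.75 to 687 ± 12.1 CPM. The vitronectin receptor subunit Itgb3 rose from 67.03 ± 2.61 to 121 ± 9.01 CPM (0.78) and Itgb5 from 166 to 225 CPM (0.37). The collagen receptor subunit Itga11 rose from 11.4 ± 0.704 to 22.3 ± 2.999 CPM (0.89) and tensin, Tns1, from 196 to 259 CPM. Flna and Ahnak, both among the most abundant called genes, fell from 3709 ± 32.8 to 3178 ± 41.9 CPM and 3563 ± 70.3 to 2782 ± 72.8 CPM. Cell-cell junction genes were lower in 12 and higher in 7 of 23 (median -0.12, -0.05 without TMM scaling). The gap junction gene Gja1 fell from 128 ± 3.01 to 73.9 ± 4.75 CPM (-0.87) and N-cadherin, Cdh2, from 137 ± 1.88 to 99.5 ± 2.76 CPM (-0.54). The adhesion receptor Nectin1 fell from 38.7 ± 1.49 to 18.2 ± 1.57 CPM (-1.16). In the other direction, F11r (JAM-A) rose from 2.52 to 4.48 CPM, Pcdh19 from 116 to 157 CPM and plakoglobin, Jup, from 58.6 to 71.9 CPM.

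Immediate early and AP-1 genes went both ways (15 lower, 9 higher of 30, median -0.07, or 0.00 without TMM scaling). Lower were ERK feedback genes such as the phosphatases Dusp4 (74.1 ± 1.62 to 32.7 ± 4.25 CPM, -1.25) and Dusp5 (53.2 ± 5.15 to 28.4 ± 1.42 CPM, -0.98). Also lower were Ier3 (26.1 to 12.96 CPM, -1.08) and Phlda1 (66.6 to 38.8 CPM, -0.85). Higher were Egr2 (3.11 to 10.2 CPM, 1.64), which promotes adipogenesis, Klf4 (33.05 ± 2.39 to 73.2 ± 6.16 CPM, 1.08), Jund (44.4 to 77.3 CPM, 0.73) and the antiproliferative Btg2 (13.2 to 25.4 CPM, 0.87).

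The matrix programme rose in part. Of the collagens 16 of 22 were called higher, 11 past 1.5-fold, and 3 lower (median 0.55). The chains of collagen VI, which forms microfibrils around adipocytes, rose together: Col6a1 measured 522, 489, 491, 480.3 and 453 CPM in the day -2 libraries and 1196, 1216, 1209, 1064 and 1083 CPM in the day -1 libraries (1.17 ± 0.040). Col6a2 rose from 398 ± 17.8 to 908 ± 67.5 CPM (1.12). Col16a1 rose from 149.9 ± 4.63 to 276 ± 17.8 CPM (0.81) and the basement membrane collagen Col15a1 from 2.06 ± 0.263 to 11.3 ± 1.83 CPM (2.39). Col8a1 fell from 80.3 ± 3.67 to 32.02 ± 1.02 CPM (-1.40), Col5a2 from 1732 ± 57.7 to 1243 ± 60.8 CPM (-0.55) and Col7a1 from 13.4 to 10.02 CPM (-0.49). The most abundant chains barely moved: Col1a2 went from 10434 ± 201 to 11755 ± 595 CPM (0.099 ± 0.037, adjusted p = 0.014 in edgeR's test, and 0.0598 without day -1 replicate 2), and Col1a1, at 9615 to 9916 CPM (-0.028 ± 0.033), was not called. Without day -1 replicates 1 to 3, Col1a2 was not called (0.025, edgeR adjusted p = 0.628) and Col1a1 was called lower (-0.10, edgeR adjusted p = 0.0255). Fibronectin, Fn1, the second most abundant called gene, rose from 7143 ± 84.6 to 9585 ± 262 CPM (0.35 ± 0.023, adjusted p = 8.76e-16).

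Glycoproteins and proteoglycans were higher in 24 and lower in 12 of 39 (median 0.41). Matn2 rose from 48.8 ± 2.73 to 132 ± 7.89 CPM (1.36) and the laminin chain Lama5 from 67 ± 1.35 to 126 ± 8.11 CPM (0.84). Versican, Vcan, rose from 1211 ± 31.3 to 2037 ± 115 CPM (0.68) and osteopontin, Spp1, from 1341 ± 48.2 to 2085 ± 43.1 CPM (0.56). Thbs1, the thrombospondin that activates latent TGF-beta, measured 1132, 1252, 1227, 1174 and 1261 CPM in the day -2 libraries and 515, 544, 488, 501 and 471 CPM in the day -1 libraries (-1.34 ± 0.049). Fbln2 (4312 ± 100.3 to 3632 ± 72.03 CPM), Lamb1 (-0.37) and Ccn4 (-0.41) fell as well. Enzymes that process and crosslink collagen had no common direction (8 higher, 11 lower of 24; median -0.06, and 0.01 without TMM scaling). The procollagen protease enhancer Pcolce2 fell from 42.1 ± 1.601 to 8.89 ± 0.507 CPM (-2.31). Loxl3, Fkbp10 and Adamts14 fell by less (-0.37, -0.30 and -0.41). The procollagen protease Adamts2 rose from 36.4 ± 1.14 to 60.3 ± 3.57 CPM (0.65) and Pcolce, Plod1 and P3h3 by 0.25, 0.29 and 0.42.

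Among proteases and their inhibitors 23 of 34 were higher and 7 lower (median 0.28). Mmp2, gelatinase A, measured 254, 229.5, 221, 236 and 231 CPM in the day -2 libraries and 629, 636, 666, 545 and 534 CPM in the day -1 libraries (1.29 ± 0.061). Mmp9, gelatinase B, rose from 11.1 ± 0.7499 to 31.5 ± 2.403 CPM (1.43). Adam23 rose from 63.01 ± 2.37 to 153 ± 18.2 CPM (1.21) and the serpin Serpine2 from 45.1 ± 2.29 to 94.3 ± 5.83 CPM (0.99). The urokinase receptor Plaur fell from 74.95 ± 3.22 to 31.9 ± 2.27 CPM (-1.30). Timp1 fell from 376 ± 9.71 to 191 ± 5.73 CPM (-1.05) and Adam12 from 118 ± 6.33 to 42.5 ± 1.77 CPM (-1.54).

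**Figure D4:**
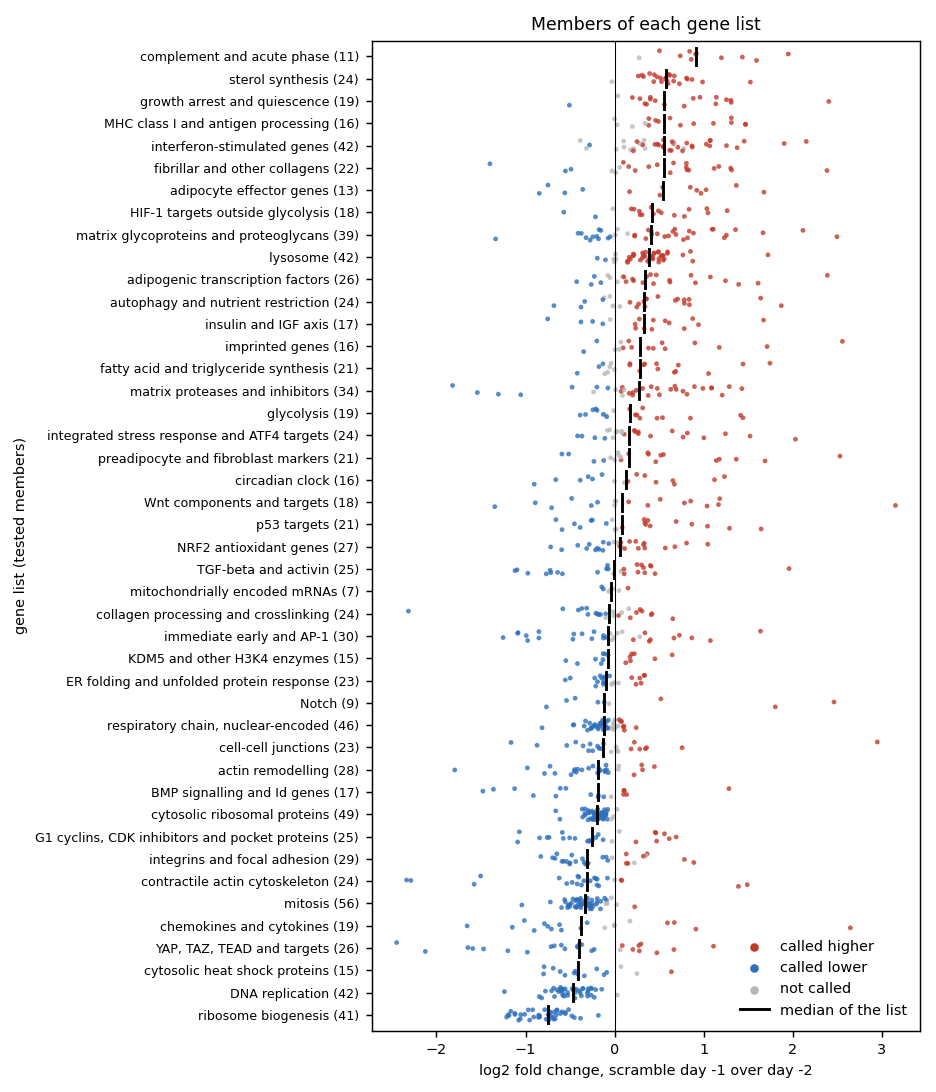
log2 fold change (horizontal axis) of every tested member of 44 gene lists (vertical axis, ordered by median; number of tested members in brackets) between scramble day -1 and day -2; red members were called higher, blue lower and grey not called, and black bars are list medians. Ribosome biogenesis lies at the low end (median -0.75) and complement and acute phase genes at the high end (median 0.91), and most lists hold members of both directions.

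Sterol synthesis genes rose almost as a whole, with 23 of 24 members called higher and none lower (median 0.58). Mvd, which decarboxylates mevalonate diphosphate, measured 43.6, 40.98, 40.5, 36.8 and 37.6 CPM in the day -2 libraries and 87.6, 85.3, 85.1, 80.1 and 78.5 CPM in the day -1 libraries (0.99 ± 0.042, adjusted p = 1.2e-20). Mvk rose from 44.2 ± 2.25 to 81.5 ± 5.04 CPM (0.81), squalene synthase, Fdft1, from 110.2 ± 5.39 to 178 ± 5.15 CPM (0.62) and HMG-CoA synthase, Hmgcs1, from 241 ± 8.78 to 384 ± 15.5 CPM (0.60). Fatty acid and triglyceride genes were higher in 13, lower in 3 and not called in 5 of 21 (median 0.28). The desaturases Scd1 and Scd2 rose from 206 ± 7.12 to 349 ± 10.4 CPM (0.69) and 1038 ± 54.7 to 1795 ± 70.8 CPM (0.72). Another desaturase, Fads1, rose from 287 ± 8.64 to 423 ± 10.6 CPM (0.49) and the citrate carrier Slc25a1 from 70.4 ± 3.499 to 118 ± 3.41 CPM (0.67). Fasn (868 ± 26.6 to 809 ± 23.5 CPM, -0.17), Fads3 (-0.42) and Me1 (-0.13) were lower.

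Adipogenic transcription factors were higher in 18 and lower in 4 of 26 (median 0.34), while Pparg was among the lower. Zfp423, a commitment factor of preadipocytes, measured 2.397, 2.13, 1.82, 1.99 and 1.83 CPM in the day -2 libraries and 12.3, 12.7, 12.2, 9.44 and 9.69 CPM in the day -1 libraries (2.39 ± 0.10). Zfp467 rose from 9.88 ± 0.549 to 31.8 ± 2.36 CPM (1.61), Stat5a from 15.2 ± 0.864 to 41.95 ± 2.46 CPM (1.39) and Ddit3 (CHOP), which restrains C/EBP factors, from 14.6 ± 0.669 to 36.3 ± 0.386 CPM (1.25). Pparg, the master regulator of fat cells, fell from 46.8 ± 0.796 to 42.02 ± 1.45 CPM (-0.23 ± 0.034, adjusted p = 3.01e-07), and Cebpa went from 1.77 to 3.93 CPM (1.08). Klf5, Rxrb and Gata2 were lower (-0.43, -0.26 and -0.15). All 13 tested effector genes of adipocytes were called, 9 higher and 4 lower (median 0.54). The lipid droplet coats Plin4 and Plin3 rose from 19.3 ± 1.73 to 65.1 ± 5.91 CPM (1.68) and 66.2 ± 1.81 to 136 ± 4.51 CPM (0.97). The fatty acid-binding protein Fabp4 rose from 11.3 ± 0.8996 to 24.3 ± 3.04 CPM (1.03) and Acsl1 from 23.9 to 35.7 CPM (0.51). Fabp5 (66.6 ± 3.37 to 41.7 ± 1.33 CPM, -0.75), Angptl4 (118 ± 6.599 to 83.95 ± 2.88 CPM, -0.56), Plin2 (151 to 124 CPM, -0.36) and Apoe (4.67 to 2.72 CPM, -0.85) fell. Markers of preadipocytes and fibroblasts were higher in 12 of 21 and lower in 4 (median 0.16). Pdgfra, the receptor that marks adipocyte progenitors, measured 140.4, 132, 129, 123 and 121 CPM in the day -2 libraries and 320.0, 309, 307, 283 and 279.6 CPM in the day -1 libraries (1.14 ± 0.050). Ly6a (Sca-1) rose from 19.8 ± 1.02 to 67.1 ± 2.18 CPM (1.69) and Anpep (CD13) from 33.7 ± 1.21 to 91.4 ± 6.85 CPM (1.37). The mesenchymal homeobox gene Prrx1 rose from 468 ± 17.8 to 721 ± 22.1 CPM (0.55). Twist2, Cd24a, Twist1 and Snai1 fell (-0.52, -0.59, -0.23 and -0.12).

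Signalling lists held called members of both directions. In the TGF-beta and activin list 11 of 25 were higher and 12 lower. The median, -0.01, changed sign with upper-quartile or no TMM scaling (up to 0.07), under the stricter CPM filter, and without day -2 replicate 2 or 3 or day -1 replicate 4, and is read as no common direction. Pathway-induced genes fell, Pmepa1 from 215 ± 12.2 to 106 ± 3.297 CPM (-1.09) and the inhibitor Smad7 from 64.6 ± 2.51 to 34.6 ± 1.91 CPM (-0.97). So did the activin subunit Inhba (134 ± 6.95 to 64.9 ± 3.12 CPM, -1.12) and Ltbp1 (381 ± 4.72 to 235 ± 6.06 CPM, -0.77). The receptors Tgfbr1 and Tgfbr3 and the latent binding protein Ltbp4 rose (0.41, 0.40 and 0.45). Tgfbi, a matrix protein named for its induction by TGF-beta, measured 37.5, 36.4, 34.7, 34.9 and 32.7 CPM in the day -2 libraries and 153, 153, 154, 130.4 and 131 CPM in the day -1 libraries (1.96 ± 0.057). Among BMP genes 11 of 17 were lower and 5 higher (median -0.19, -0.11 without TMM scaling). The target genes Id2 (68.7 ± 3.12 to 33.2 ± 1.18 CPM, -1.12) and Id3 (99.4 ± 2.48 to 68.5 ± 3.15 CPM, -0.61) and Smad9 (11.5 to 4.71 CPM, -1.36) fell. In turn Bmpr1a, Twsg1, Smad5 and Grem1 were higher by 0.10 to 0.14.

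Wnt components were higher in 9 and lower in 6 of 18 (median 0.09, 0.16 without TMM scaling). The receptors Fzd1 and Fzd4 and the coreceptor Lrp5 rose from 76.5 ± 3.73 to 165 ± 13.8 CPM (1.04), 4.64 to 10.98 CPM (1.17) and 121 ± 4.94 to 229.6 ± 18.02 CPM (0.86). The noncanonical ligand Wnt5a fell from 46.1 ± 2.98 to 29.7 ± 1.702 CPM (-0.71), as did the inhibitor Apcdd1 (-1.35), Fzd7 (-0.48) and Ror1 (-0.89). Of 9 Notch genes 3 were higher and 5 lower (median -0.12, -0.04 without TMM scaling). The receptors Notch1 and Notch3 rose from 9.91 ± 0.431 to 36.5 ± 3.19 CPM (1.80) and 2.01 ± 0.369 to 11.7 ± 1.52 CPM (2.46). The ligand Jag1 (-0.77) and the target Hes1 (-0.54) fell. In the insulin and IGF axis 12 of 17 were higher and 4 lower (median 0.33). Igfbp4, a binding protein that holds IGF, measured 28.4, 24.8, 26.2, 26.4 and 27.5 CPM in the day -2 libraries and 91.7, 84.9, 98.6, 88.9 and 83.6 CPM in the day -1 libraries (1.67 ± 0.050). Igf2r, which clears IGF2, rose from 482 ± 4.45 to 751 ± 30.1 CPM (0.57) and Grb10 from 98.2 ± 2.89 to 139.7 ± 3.41 CPM (0.44). The substrates Irs1 and Irs2 and the receptor Igf1r fell (-0.75, -0.38 and -0.25).

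Catabolic and metabolic groups differed in direction. Lysosomal genes rose as a group, 36 of 42 higher and 2 lower (median 0.39). Tpp1, a lysosomal peptidase, measured 165, 167, 166, 165 and 162 CPM in the day -2 libraries and 262, 274, 259, 253 and 261 CPM in the day -1 libraries (0.59 ± 0.027, adjusted p = 4.72e-20). The proton pump subunit Atp6v0d1 rose from 132 ± 4.79 to 209.9 ± 5.76 CPM (0.60). The cathepsins Ctso and Ctsd rose from 3.78 to 13.1 CPM (1.72) and 193 ± 4.21 to 273 ± 3.01 CPM (0.43). Atp6v1h and Gusb were lower (-0.19 and -0.10). Autophagy and starvation genes were higher in 16 of 24 (median 0.33, 4 lower). They were led by Sesn3 (43.04 ± 2.25 to 166 ± 13.4 CPM, 1.87), Ddit4 (52.9 ± 1.93 to 99.3 ± 1.89 CPM, 0.84), which inhibits mTORC1, and Klhl24 (26.9 to 50.7 CPM, 0.84). Cited2 fell (114 ± 3.37 to 74.7 ± 3.38 CPM, -0.68). Targets of HIF-1 outside glycolysis were higher in 15 of 18 (median 0.42): Bhlhe40 rose from 116 ± 2.84 to 195 ± 4.78 CPM (0.67), Ndrg1 from 5.64 to 14.2 CPM (1.26) and Pdk1 from 29.97 ± 1.17 to 64.7 ± 3.17 CPM (1.04), with Adm (-0.57) and Egln1 (-0.21) lower. Glycolysis split, 10 higher and 7 lower of 19 (median 0.17): Pfkp, Hk1 and Pfkl rose from 85.2 ± 1.59 to 162 ± 3.101 CPM, 143 ± 3.31 to 219 ± 4.404 CPM and 140.2 ± 1.65 to 205 ± 8.13 CPM. The enolase Eno2 rose from 16.6 to 46.5 CPM (1.42). Its relative Eno1 (552 to 463 CPM), Hk2 (118 to 94.8 CPM) and Gapdh (1494 to 1327 CPM, -0.24) fell. Nuclear-encoded respiratory chain genes were lower in 30 and higher in 7 of 46, with a small median of -0.12. Without TMM scaling these counts were 22 and 12 and the median -0.05. Among the lower were cytochrome c, Cycs (93.7 ± 3.92 to 56.02 ± 2.95 CPM, -0.81), Atp5b (1064 ± 4.45 to 892 ± 13.3 CPM, -0.33) and Cyc1 (114 to 86.9 CPM, -0.46).

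Stress responses showed no single course. Targets of ATF4 were higher in 13 and lower in 4 of 24 (median 0.17). The pseudokinase Trib3 measured 24.1, 25.6, 24.2, 28.7 and 31.2 CPM in the day -2 libraries and 75.2, 71.9, 78.9, 89.2 and 87.8 CPM in the day -1 libraries (1.52 ± 0.091). The mTORC1 inhibitor Sesn2 rose from 46.8 ± 2.15 to 86.6 ± 2.87 CPM (0.82) and Vldlr from 3.42 ± 0.472 to 14.7 ± 1.36 CPM (2.03). The serine synthesis genes Phgdh and Shmt2 fell from 187 ± 4.88 to 147 ± 10.4 CPM (-0.42) and 335 ± 16.6 to 273 ± 28.6 CPM (-0.37). The core of the ATF4 response element, TGATGNAA, was in 6 of 18 promoters (33.3%) against 1.97% of all. Endoplasmic reticulum folding genes were lower in 13 and higher in 6 of 23 (median -0.10, -0.03 without TMM scaling), with Hyou1 (-0.50) and Dnajb9 (-0.55) lower and Sel1l (0.34), Xbp1 (0.33), Herpud1 (0.30) and Edem1 (0.28) higher.

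Innate immune genes moved in opposite ways. Chemokines and cytokines were lower in 11 and higher in 4 of 19 (median -0.38). Ptgs2, the inducible cyclooxygenase of prostaglandin synthesis, measured 84.8, 88.1, 86.4, 89.5 and 90.8 CPM in the day -2 libraries and 29.3, 28.5, 28.1, 31.5 and 29.3 CPM in the day -1 libraries (-1.66 ± 0.047). The macrophage growth factor Csf1 fell from 576 ± 14.6 to 324 ± 8.44 CPM (-0.90), the IL-33 receptor Il1rl1 from 650.3 ± 26.5 to 396 ± 39.3 CPM (-0.79) and the cytokine Clcf1 from 57.1 to 36.7 CPM (-0.71). Ccl11, eotaxin, rose from 0.754 to 5.02 CPM (2.65), Cx3cl1 from 90.4 ± 3.44 to 144 ± 9.14 CPM (0.59) and Ccl8 from 2.37 to 4.68 CPM. Complement and acute phase genes had the highest median of all lists, 0.91, with 10 of 11 higher and none lower. Ceruloplasmin, Cp, measured 13.3, 9.82, 10.5, 12.04 and 9.22 CPM in the day -2 libraries and 47.4, 44.7, 50.3, 39.5 and 41.7 CPM in the day -1 libraries (1.95 ± 0.094). Complement C3 rose from 14.7 ± 1.24 to 46.8 ± 7.58 CPM (1.59) and the protease C1s1 from 11.2 ± 0.6495 to 27.1 ± 2.34 CPM (1.2). Metallothionein Mt2 rose from 28.2 ± 1.44 to 53.8 ± 2.27 CPM (0.86).

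Interferon-stimulated genes varied widely within each day. In this list 27 of 42 were called higher, 1 lower and 14 not (median 0.55), but in only 9 did the libraries of the days not overlap, against 66.3% of all genes. The mean log2(CPM + 1) of the interferon-stimulated genes was 3.39, 3.91, 3.74, 4.24 and 4.68 in day -2 replicates 1 to 5 and 4.56, 4.22, 4.52, 4.95 and 4.71 in day -1 replicates 1 to 5. Thus day -2 replicate 5 was above 3 of the 5 day -1 libraries and replicate 1 far below all. Ifit1, an antiviral effector that was not called, measured 21.5, 34.9, 29.3, 43.1 and 62.5 CPM in the day -2 libraries and 47.1, 34.2, 46.7, 64.1 and 55.8 CPM in the day -1 libraries (0.31 ± 0.23). Without day -2 replicate 5 Ifit1 was called (0.56, edgeR adjusted p = 0.0309). Members whose days did not overlap included Stat2 (39.3, 55.4, 49.2, 68.6 and 79.9 CPM in the day -2 libraries and 127, 103, 119.9, 146 and 129.7 CPM in the day -1 libraries, 1.03). Others were Ifi27l2a (3.78 to 17.6 CPM, 2.15), Trim30a (16.5 to 47.4 CPM, 1.46) and Irf1 (47.9 ± 2.07 to 70.3 ± 2.53 CPM, 0.48). Without day -1 replicates 4 and 5 the count of members called higher was 15. Leaving out 1 library at a time it ran from 21 (without day -1 replicate 4) to 34 (without day -2 replicate 5), with medians of 0.43 to 0.81. In the Kdm5c siRNA libraries, which also differed among themselves, the median over the same step was -0.01. MHC class I and antigen processing genes were higher in 12 of 16, none lower (median 0.56), and overlapped less: Tapbp rose from 172 ± 18.6 to 301 ± 9.62 CPM (0.74) and the peptide transporter Tap2 from 8.37 ± 1.92 to 21.8 ± 1.63 CPM (1.31). H2-M3 rose from 7.13 to 11.5 CPM and the proteasome activator Psme2 from 43.1 ± 3.48 to 59.2 ± 2.35 CPM (0.39).

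The change from day -2 to day -1 was then set against that from day -1 to day 0. The 2 steps share the day -1 libraries, so they were compared by testing the difference of the changes (second difference). The second step was also tested by itself, with 4420 genes called higher and 4557 lower. The second difference was called positive for 23.7% of genes (2843), whose change was more upward or less downward in the second step, and negative for 26.2% (3145). This split was 1533 and 4716 without TMM scaling and 1977 and 4002 with upper-quartile scaling, and it was 1722 and 2310 without day -1 replicates 1 to 3. Mitosis genes fell further in the second step: their medians were -0.34 in the first step and -1.08 in the second, with the second difference negative in 55 of 56 members. Cdk1 stood at 137, 95.2 and 42.2 CPM on the 3 days. DNA replication genes had -0.47 and -0.84 (35 of 42 negative). Ribosome biogenesis instead fell more in the first step with TMM scaling, with -0.75 and -0.57. Its second difference was positive in 30 of 41 members and negative in none. Sterol synthesis had medians of 0.58 and -0.14, with 2 members called higher and 13 lower in the second step, and a negative second difference in all 24 members. Targets of YAP had medians of -0.40 and -0.04 (15 of 26 positive). Lysosomal genes had 0.39 and 0.55 (28 of 42 positive). The second-step medians and the list counts of this difference were taken with TMM scaling only. Under other scalings the first-step median reached -0.65 for ribosome biogenesis and 0.47 for lysosomal genes. Whether these lists differ between the steps under other scalings was not tested.

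Single genes set the extremes of this difference. Mmp13, collagenase 3, was at 2.48, 2.202 and 30.1 CPM on day -2, day -1 and day 0, not called in the first step (-0.24) and higher by 3.80 in the second (second difference 4.04, adjusted p = 1.21e-12). Rgs16, an inhibitor of G protein signalling, ran 23.9, 5.56 and 8.21 CPM (second difference 2.77) and the secreted Crispld2 5.51, 1.22 and 1.53 CPM (2.60). Acta1 and Lrp2 also had large positive values (3.37 and 2.94), since most of their fall lay in the first step and left them near 1 CPM. On the negative side, Lrrc17 ran 5.79, 74.8 and 95.7 CPM (-3.22) and Spon2 5.02, 50.9 and 65.7 CPM (-2.86), both with most of their rise in the first step. Sncg, gamma-synuclein, peaked on day -1 with 1.75, 8.73 and 4.502 CPM (-3.16), Syt13 ran 1.504, 11.1 and 9.81 CPM (-2.95), and Ntrk3, a neurotrophin receptor, rose and then fell to below its start, 9.74, 17.9 and 3.98 CPM (-2.94).

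The step was also measured in the cells that had received siRNA against Kdm5c, which share no library with the comparison. Both siRNAs were sampled at the same times after transfection. An effect of harvest or preparation common to a day could thus appear in both, and this was not tested. There 76.8% of genes were called between day -1 and day -2. In both siRNAs 8458 genes were called in the same direction, which is 89.2% of the scramble calls and 91.7% of those with Kdm5c siRNA, and 16 in opposite directions. Of the 677 genes past 2-fold in scramble cells, 667 were called the same way. Across genes, which are not independent replicates, the log2 fold changes of the 2 siRNAs had Pearson's r of 0.96 and Spearman's rho of 0.95. Lrrc17 had 3.61 and 3.51, Acta1 -4.52 and -4.34, Nop2 -1.17 and -1.03, Rrm2 -1.24 and -1.17, and Mvd 0.99 and 0.84. The difference between the 2 changes was called for 3.56% of genes (257 positive, 171 negative), 26 of them past 1.5-fold. Without day -1 replicates 1 to 3 these counts were 121 and 53, and without replicates 4 and 5 they were 486 and 339. Tagln was among the genes called: it changed by -2.34 in scramble cells and by -1.75 with Kdm5c siRNA (difference 0.59, adjusted p = 8.61e-06).

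**Figure D5:**
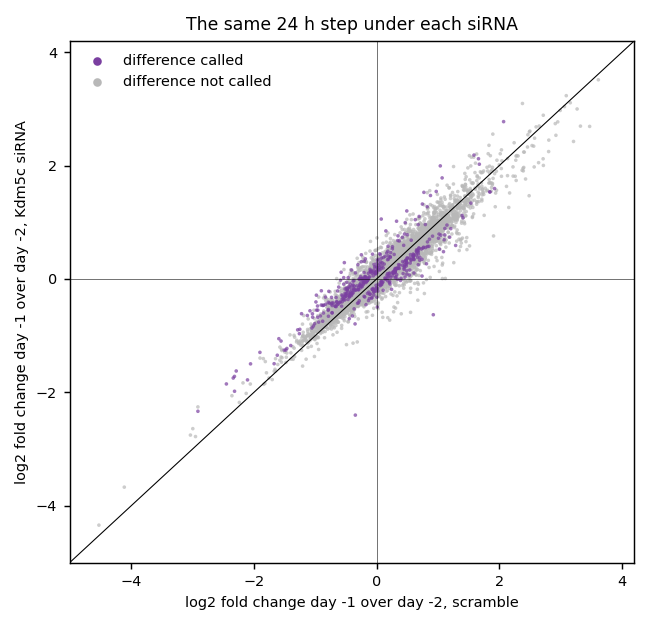
log2 fold change between day -1 and day -2 with Kdm5c siRNA (vertical axis) against that with scramble siRNA (horizontal axis) for 12016 genes; the diagonal is equality and purple genes differed between the siRNAs at an adjusted p under 0.05. Most genes lie along the diagonal, and 428 (3.56%) are purple.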

How the data were processed

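Scramble libraries of polyadenylated RNA, made with a kit that keeps strand, were compared between day -2 and day -1. The authors deposited CPM for 55573 genes, which were whole reads divided by the library total (100.0% of nonzero values within 0.05 reads of a whole number), and a second table of counts for 12016 genes, equal to those reads and limited to genes that reach 1 CPM in 20 libraries. The submitters' processing notes name the build GRCm38, edgeR 3.26.8 and STAR 2.7.2a. How reads were counted, with or without strand, and how shared reads were treated is not stated in the sources used here.

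The counts were fitted with edgeR 4.0.16 (R 4.3.3; quasi-likelihood, TMM scaling, full library totals) as 6 group means over all 30 libraries with 24 residual degrees of freedom, and the common biological coefficient of variation was 0.0367. Tests were two-sided, Benjamini-Hochberg adjusted over 12016 genes, and called at 0.05. In counts simulated for this comparison on 12016 genes, 46, 66, 92 and 100% of 50 genes each changed 1.1-, 1.2-, 1.5- and 2-fold were called, and 9 of 11816 unchanged genes. Most genes were thus unchanged in the simulated counts, whereas 78.9% of genes were called in the data. What share would be called when most genes change was not tested. The smallest level told from 0 is set by depth, at 3 reads for a count of 0, and such limits cover counting error only. Columns were matched to samples by replicate number, siRNA and day. GENCODE M21, which held 12010 of the identifiers, gave symbols and coordinates, and promoters came from RefSeq GRCm38.p6.

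The comparison, the 44 gene lists and 6 marker lists of other cell types, from textbook knowledge, the rule for naming genes and the tests were chosen with earlier results of these data known, and lists share members. Named were the 10 called genes that changed most each way with a mean of 2 CPM or more and non-overlapping days, up to 4 called members of a list each way with the smallest adjusted p, Kdm5c, the 5 largest second differences each way, the 10 most abundant called genes and markers of other cell types of at least 2 CPM. Myc, Ncl, Ccn2, Gas1, Mki67, Ifit1, Srf, Aspm, Bub1b, Cdc6, Rfc4, Cebpa, Col1a1 and Mdm2 were added after their values were seen. Some genes that the rule names are not reported here. Same-numbered libraries of the 2 days correlated weakly in their deviations (0.01 to 0.14), so numbers were not taken to pair them. Libraries within a day differed beyond sampling noise (chi-square per degree of freedom of 1.96 to 9.08 over genes), so none was counted as a repeat. Alternatives were limma 3.58.1 on log2 CPM, DESeq2 1.42.0, other scalings and filters, a fit of the 10 libraries alone, a replicate block, each library left out in turn and 3 sets of libraries left out together.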

Additional observations from a re-analysis of the deposited data

Results flagged for a closer look

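In each day's group of 5 scramble libraries, the values of the 308 genes named were searched for a single library apart from the others, by the gap to its neighbour as a share of the range (Dixon's critical value 0.71). This met 21 of 616 groups (3.41%), and chance alone gives about 1 in 20. Day -1 replicate 1 stood apart for Flna (3106 CPM against 3184 to 3214 in the other libraries) and Rfc4 (14.5 CPM against 16.3 to 16.8). Day -1 replicate 3 stood apart for Cited2 (68.9 CPM against 74.9 to 77.2), Col7a1 (10.6 CPM against 9.798 to 10.01), Inhba (59.4 CPM against 65.3 to 66.8), Pfkp (167 CPM against 159.8 to 162) and Plin3 (144 CPM against 134 to 136). Day -1 replicate 4 stood apart for Smad5 (89.8 CPM against 94.7 to 95.4). Day -1 replicate 5 stood apart for Grb10 (146 CPM against 137 to 139), Ly6a (63.4 CPM against 67.3 to 68.8) and Ntrk3 (19.7 CPM against 17.2 to 17.7). Day -2 replicate 1 stood apart for Cdkn2a (163 CPM against 159 to 160.0), Dnajb9 (20.3 CPM against 19.7 to 19.8) and Plin4 (22.3 CPM against 18.1 to 19.1). Day -2 replicate 2 stood apart for Fzd4 (5.33 CPM against 4.33 to 4.53). Day -2 replicate 4 stood apart for Apoe (6.82 CPM against 3.76 to 4.33) and Cd24a (28.1 CPM against 29.4 to 29.5). Day -2 replicate 5 stood apart for Dock5 (101 CPM against 106 to 107), Scd1 (194 CPM against 208 to 211), Tap2 (11.7 CPM against 6.92 to 8.05) and Tgfbr1 (44.7 CPM against 46.1 to 46.6).

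The change between 24 and 48 h differed between the siRNAs for 51 of the same genes in edgeR's test of the difference itself (adjusted p under 0.05 over all genes; 3.56% of all 12016 were called). Values are the log2 change with Kdm5c siRNA minus that with scramble. The furthest from 0 were H19, which changed by -0.35 with scramble and -2.40 with Kdm5c siRNA (difference -2.05), and Phex, with 1.04 and 1.99 (0.96). Among actin, adhesion and YAP-linked genes it was above 0 for Actg2 (0.66), Ankrd1 (0.60), Tagln (0.59), Tnnt2 (0.49), Marcksl1 (0.43), Myl9 (0.25), Tmsb4x (0.25), Itga5 (0.18), Jup (0.16), Fscn1 (0.12), Flna (0.11) and Actn4 (0.09) and below 0 for F3 (-0.33), Marcks (-0.18), Tns1 (-0.14) and Rhob (-0.14). Matrix genes above 0 were Tll1 (0.58), Ltbp1 (0.34), Ltbp4 (0.34), Col7a1 (0.33), Pcolce2 (0.33), Col8a1 (0.23), Adamts14 (0.21), Lamb1 (0.21), Fbln2 (0.20), Timp1 (0.19) and Spp1 (0.12) and those below 0 were Adam23 (-0.32) and Vcan (-0.20). In signalling and growth control the difference was above 0 for Il1rl1 (0.38), Dusp4 (0.36), Igfbp4 (0.35), Ccnd1 (0.29) and Mdm2 (0.11). Transcription factors and cofactors with a positive value were Nr1d1 (0.44), Nr1d2 (0.33), Twist2 (0.26), Yaf2 (0.23), Klf5 (0.19) and Rxrb (0.14) and with a negative one Stat5a (-0.28) and Clock (-0.13). Of the H3K4 enzymes, Kdm5c (0.21) was above 0 and below it were Kmt2c (-0.23) and Kdm5b (-0.15). Metabolic and antioxidant genes were below 0, with Atp6v0d1 (-0.16), Slc25a1 (-0.17), Gstm1 (-0.27) and Pfkp (-0.28).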

How the results depend on the processing

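The counts of genes called between day -1 and day -2 stayed within 1.5 times in all alternatives, from 4286 (without day -1 replicates 1 to 3) to 5621 (limma) higher and from 3863 (limma, pseudocount 0.1) to 5550 (no filter) lower. These counts are not shares of the same genes. With no filter 32318 genes were tested, with edgeR's own expression filter 15135, with the stricter CPM filter 10647 and in the other alternatives 12016. Leaving out 1 library gave 4644 to 4694 higher and 4641 to 4693 lower. Same-numbered libraries of the 2 days correlated by 0.01 to 0.14 in their deviations, over 0.1 in 2 of 5 pairs. Of the 5 day -2 libraries, 1 correlated best with its own number. A block by number was therefore run only as an alternative. With the replicate block, 4728 genes were higher and 4710 lower, and the other counts were 2802 and 3085 (second difference), 4590 and 4620 (Kdm5c siRNA) and 250 and 167 (difference between siRNAs). Positive second differences, 2843 in edgeR with TMM, were 1533 without TMM, 1533, 1553 and 1624 in limma (pseudocounts 0.1, 0.5 and 2) and 1722 without day -1 replicates 1 to 3. Leaving out 1 library gave 2579 to 2817 positive and 2898 to 3108 negative. With Kdm5c siRNA the step split into 4596 higher and 4630 lower, into 5605 and 3643 without TMM, and into 4470 to 4582 and 4517 to 4571 with 1 library left out. Differences between siRNAs (257 positive, 171 negative) were 121 and 53 without scramble day -1 replicates 1 to 3 and 486 and 339 without replicates 4 and 5. Negative ones were 418 with no filter and 86 without day -2 replicates 1 and 5. With 1 library left out they ran from 185 to 325 positive and 100 to 212 negative. The lowest negative counts came without scramble day -1 replicate 1 (101) or 3 (100) and without Kdm5c siRNA day -1 replicate 1 (101) or 5 (103). The causes were not tested. A change of sign was counted as a reversal only for genes called in edgeR with TMM. By this count, none of the 308 named genes reversed in 7698 comparisons of a gene with an alternative. In 33 of these, 10 genes lost their call: Gata2, Gusb, Me1, Snai1 and mt-Nd2 without TMM, Col1a2, H19, Grem1, Twsg1 and Snai1 without a library or set of day -1 libraries, and Smad5 with no filter. Another 6 genes gained one in 24, Bub1b and Mdm2 without TMM and Col1a1 without day -1 replicates 1 to 3 among them. At a depth of 27975969 reads or more per library, 46% of simulated 1.1-fold and 100% of 2-fold changes were called. There 11816 of 12016 genes were unchanged, and the case in which most genes change was not tested.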

Other observations

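Several gene groups that stand outside the changes described above moved in both directions. Clock genes were higher in 8 and lower in 6 of 16. Arntl (BMAL1), the activator of the clock, rose from 15.7 ± 0.659 to 35.9 ± 1.82 CPM (1.12), the repressors Nr1d1 and Nr1d2 fell from 31.2 ± 1.51 to 17.5 ± 0.344 CPM (-0.90) and 46.3 ± 1.66 to 30.8 ± 1.02 CPM (-0.66), Clock itself fell by less (-0.30) and Rora rose (3.38 to 8.36 CPM, 1.23). All libraries of a day may share a clock time, which the labels do not give. Imprinted genes were higher in 11 of 16 and lower in 2 (median 0.29): Peg3 rose from 19.8 ± 1.53 to 38.9 ± 3.199 CPM (0.90), and H19 was among the lower (2.86 to 2.36 CPM, -0.35), though not without day -1 replicate 5 (-0.24, edgeR adjusted p = 0.0504). Airn rose from 2.96 to 10.2 CPM (1.71), but it lies antisense to Igf2r, which rose as well, and the use of strand in counting is not given. Targets of p53 were higher in 11 and lower in 7 of 21 (median 0.09, 0.16 without TMM scaling): Trp53inp1 rose from 30.3 ± 2.47 to 100.02 ± 6.68 CPM (1.65) and Bbc3 (PUMA) from 6.45 to 16.6 CPM (1.29), Fas rose (8.401 to 18.2 CPM) while Trp53 itself (212 ± 5.26 to 170.2 ± 10.4 CPM, -0.39), Aen (-0.66), Tigar (-0.59) and Plk2 (-0.45) fell. Mdm2, the ubiquitin ligase that degrades p53, was at 2878 ± 43.7 to 3036 ± 64.6 CPM and not called (0.0041 ± 0.020), a level close to those of the abundant structural genes.

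Antioxidant genes under NRF2 were higher in 13 and lower in 11 of 27 (median 0.06, 0.13 without TMM scaling): Gstm1 rose from 27.7 ± 1.68 to 60.3 ± 4.29 CPM (1.05) and ferritin heavy chain, Fth1, from 1984 ± 54.8 to 3098 ± 185 CPM (0.57), and Txnrd1 fell from 314 ± 4.02 to 201 ± 8.43 CPM (-0.72) and Gclc from 50.3 to 35.02 CPM (-0.59). Of 7 mitochondrially encoded mRNAs 1 was higher, mt-Co1 (6773 ± 179.8 to 7913 ± 236 CPM, 0.15), and 2 lower, mt-Nd1 (-0.14) and mt-Nd2 (-0.13), with a median of -0.04 that was 0.03 without TMM scaling. Enzymes of H3K4 methylation were all called, 7 higher and 8 lower of 15, with a median of -0.07 that was 0.00 without TMM scaling. Kdm5b, a relative of the siRNA target, rose from 70.1 ± 1.87 to 116 ± 4.095 CPM (0.65), Kmt2c from 85.3 ± 2.99 to 123 ± 4.18 CPM (0.45) and Kdm5c itself by 0.19, while the core subunits Wdr5 and Dpy30 fell from 76.7 ± 1.6 to 55.2 ± 2.64 CPM (-0.55) and 34.5 to 27.2 CPM (-0.42). Markers of bone and cartilage cells summed to 171.5 to 179.1 CPM on day -2 and 213.8 to 222.7 on day -1. Of these, Dmp1, Phex and Sox9 were higher (1.67, 1.04 and 0.32), Runx2 was not called (-0.055) and Col9a1 was at 0. Runx2 was called lower when any of 4 single libraries was left out (-0.066 to -0.061) and without day -2 replicates 1 and 5 (-0.079). It was also called lower with DESeq2 (-0.059), median-of-ratios scaling (-0.059), no filter (-0.089) and edgeR's own expression filter (-0.073). Neural markers summed to 15.1 to 17.4 and 23.8 to 28.5 CPM, with Map2 higher (0.56) and Sox10 and Olig2 at 0. The leukocyte marker Csf1r fell from 5.001 to 2.18 CPM, and Cd14 was not called (6.004 to 6.63 CPM).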
